A study of Rattus norvegicus with 9 samples.

Results

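A set of 10 genes of blood vessel endothelium and its main growth factor were followed in the kidneys of rats given colistin. They were chosen by name: the growth factor Vegfa, its receptors Kdr and Flt1, the receptors Tek and Tie1, the co-receptor Eng, the adhesion proteins Pecam1 and Cdh5, the surface mucin Emcn, and Vwf. Of the 10 genes, 9 had a probe set annotated to them alone, with 13 such probe sets among 20826 on the array, and Cdh5 had none in the annotation used. Flt1 was too dim to test, so 8 of the 10 were tested, among 10337 genes in all.

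The Sprague-Dawley rats, an outbred stock bought at 8 weeks of age and acclimated for 1 week, received an intraperitoneal injection each day for 7 days. The control rats received vehicle, and the others received CMS (colistin methanesulfonate sodium, which releases the antibiotic colistin in the body) diluted in saline, at 25 mg/kg (CMS25) or 50 mg/kg (CMS50). Each group had 3 rats and 1 array of the whole right kidney per rat, and the labels record no lesion at 0 mg/kg, basophilic and dilated tubules at 25 mg/kg, and necrosis, degenerating tubules and casts at 50 mg/kg. Values are the authors' log2 intensities, group values are means ± SD (n = 3), and a gene is called where limma gave an adjusted p under 0.05 over all 10337 genes.

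Endothelial cells line every vessel of the kidney, from the glomerular capillaries to the capillaries around the tubules. Vegfa is secreted in the kidney mainly by podocytes and tubule cells, and it binds Kdr, which carries most of its signal in the endothelium, and Flt1, which binds it tightly and can act as a decoy. Tek is the receptor of the angiopoietins, and Tie1 is its partner without a firmly established ligand of its own. Pecam1 and Cdh5 hold endothelial cells together, Emcn covers the surface of capillaries and veins, Eng is a co-receptor for ligands of the TGF-beta family, and Vwf is a clotting protein that endothelial cells store and release. In whole kidney RNA, fewer endothelial cells and less RNA per endothelial cell cannot be told apart.

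Promoters of 6 of the 10 genes were in the RefSeq table of the rat assembly GRCr8, which gives 250 bases before and 50 bases after the annotated start. The windows of Emcn (chr2:228564289-228564588, plus strand), Kdr (chr14:32571813-32572112, plus strand), Eng (chr3:36332029-36332328, plus strand) and Tie1 (chr5:137304932-137305231, minus strand) are shown. Emcn and Kdr were lower on every CMS50 array than on every vehicle array, and Eng and Tie1 were not. Kdr, Eng and Tie1 were not called in any comparison of the main fit. Capitals mark GGAA on either strand, the core bound by the ETS family of transcription factors that is used widely in endothelial genes.
Emcn: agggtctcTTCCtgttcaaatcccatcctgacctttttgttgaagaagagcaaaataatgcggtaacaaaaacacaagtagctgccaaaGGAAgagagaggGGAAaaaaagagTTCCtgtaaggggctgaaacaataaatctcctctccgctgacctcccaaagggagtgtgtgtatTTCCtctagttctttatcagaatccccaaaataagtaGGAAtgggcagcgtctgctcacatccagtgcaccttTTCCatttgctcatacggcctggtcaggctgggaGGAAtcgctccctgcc
Kdr: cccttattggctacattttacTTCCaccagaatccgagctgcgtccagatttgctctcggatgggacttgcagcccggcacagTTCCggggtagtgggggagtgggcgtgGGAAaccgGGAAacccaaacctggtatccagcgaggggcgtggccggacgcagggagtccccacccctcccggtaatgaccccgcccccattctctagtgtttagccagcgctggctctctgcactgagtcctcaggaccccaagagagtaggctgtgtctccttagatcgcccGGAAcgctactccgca
Eng: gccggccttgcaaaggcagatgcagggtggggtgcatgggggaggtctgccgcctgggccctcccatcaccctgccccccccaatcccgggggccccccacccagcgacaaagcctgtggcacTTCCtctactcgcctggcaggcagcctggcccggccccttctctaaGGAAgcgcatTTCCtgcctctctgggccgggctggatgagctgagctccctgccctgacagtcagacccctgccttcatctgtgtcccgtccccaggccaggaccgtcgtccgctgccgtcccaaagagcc
Tie1: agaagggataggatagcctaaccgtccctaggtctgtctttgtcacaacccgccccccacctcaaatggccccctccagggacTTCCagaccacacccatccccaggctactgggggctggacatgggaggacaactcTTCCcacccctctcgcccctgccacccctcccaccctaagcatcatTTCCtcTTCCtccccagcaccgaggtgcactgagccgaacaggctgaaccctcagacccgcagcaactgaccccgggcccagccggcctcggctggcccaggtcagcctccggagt
The Emcn window held 8 matches, that of Kdr 5, that of Tie1 4 and that of Eng 3. Of the windows not shown, the 2 of Vegfa held 4 and 3 matches and that of Flt1 held 3. Of 33469 windows of 300 bases in the table, 95.8% held the core at least once and the median was 3 matches, so its presence does not set these genes apart. The core of the hypoxia response element, ACGTG or GCGTG on either strand, was in 41.6% of all windows. It occurred in 2 places in the Kdr window, in 1 place in that of Flt1, and in neither of the 2 Vegfa windows in the table. Such matches describe the windows and do not show that a factor binds there. Bases outside the windows were not searched, so a window without a match does not mean that the gene lacks such a site.

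Across the whole series, correlations between arrays ran from 0.916 to 0.989. Kidney genes were bright, with means over the 9 arrays of 13.77 for the phosphate transporter Slc34a1 and 13.29 for Umod (uromodulin). CMS50 replicate 3 had moved least within its group, with a median of 0.637 of the vehicle-to-CMS50 difference. The other CMS50 arrays were at 1.20 and 1.25. The measure ran over the 3211 genes called between these groups on the same arrays. Each array was left out of its own group mean, so the CMS50 mean used for the other CMS50 arrays holds replicate 3. CMS25 replicates 1 and 2 were at 0.117 and 0.114 on that measure and CMS25 replicate 3 at -0.0312. CMS25 replicate 3 stood apart in the genes described here, and the results that it moves are given with and without it. The gap between 3′ and 5′ control probe sets, a reading of RNA quality, was 2.98 ± 0.16 in vehicle and 3.58 ± 0.09 in CMS50 for beta-actin (log2), without overlap (two-sided exact permutation p = 0.1, the smallest that 3 against 3 allows). In CMS25 the beta-actin gap was 3.17 ± 0.12. The GAPDH gap was 0.54 ± 0.03 in vehicle, 0.70 ± 0.21 in CMS25 and 0.82 ± 0.06 in CMS50. For GAPDH, CMS50 arrays lay above all vehicle arrays but overlapped the CMS25 arrays. The beta-actin gap moves with every CMS50 difference below, and the part of RNA quality in them was not tested.

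The comparison of CMS50 with vehicle asked what the toxic dose changed in these genes. Vwf, Emcn and Vegfa fell, and none of the 8 tested genes rose by the test. Vwf was 2.97-fold lower, Emcn 1.41-fold lower and Vegfa 1.32-fold lower. Across all genes 31.1% were called, 19.6% higher and 11.4% lower. The 3 of 8 called here thus lie near the share for all genes in either direction, whereas all 3 were lower. The median change of the 8 genes was -0.36, against 0.05 over all genes tested. Arrays of the 2 groups did not overlap in 6 of the 8 genes, compared with 49.6% of all genes.

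Vegfa had values of 9.87, 9.63 and 9.86 in vehicle kidneys, 9.79, 9.80 and 9.54 in CMS25 kidneys, and 9.30, 9.39 and 9.47 in CMS50 kidneys, for replicates 1 to 3 of each group. Every CMS50 array lay below every vehicle and CMS25 array. The change against vehicle was -0.40 (SE 0.11, 95% interval -0.64 to -0.16, limma adjusted p = 0.0224). It was not called without vehicle replicate 1, vehicle replicate 3, CMS50 replicate 1 or CMS50 replicate 2 (largest adjusted p = 0.0800), with changes from -0.48 to -0.36 over the 18 alternatives. The other Vegfa probe set was dimmer and also lower on every CMS50 array, at 6.34, 6.36 and 6.24 against 6.66, 6.46 and 6.77 in vehicle. Its change was -0.32 (limma adjusted p = 0.0390 with every probe set tested, where 29.2% of probe sets were called). Between CMS50 and CMS25 in that fit, neither Vegfa probe set was called, with adjusted p of 0.0854 for the dimmer and 0.0531 for the brighter, where 27.6% of probe sets were called.

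Kdr, the main signalling receptor for Vegfa, measured 9.08, 8.57 and 9.18 in vehicle, 9.07, 9.21 and 8.35 in CMS25, and 8.38, 8.24 and 8.46 in CMS50. The CMS50 arrays were again below the vehicle arrays, but vehicle replicate 2 and CMS25 replicate 3 were low within their groups. The change was -0.58 (SE 0.23, 95% interval -1.10 to -0.07) and missed the threshold (limma adjusted p = 0.0820). Without CMS25 replicate 3 the same change of -0.58 had a limma adjusted p of 0.0265, because the 3 groups share 1 estimate of the spread, and 3293 of all genes were called in that fit. The other Kdr probe set had a mean of 3.83 and was not tested.

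Flt1, the receptor that can trap Vegfa, stayed dim on all 3 of its probe sets, with means over the 9 arrays from 3.60 to 4.69. On the brightest of them the vehicle kidneys gave 4.62, 4.85 and 4.87, the CMS25 kidneys 4.74, 5.09 and 4.48, and the CMS50 kidneys 4.40, 4.39 and 4.73. The vehicle and CMS50 arrays overlapped, and no test is given because the mean lies under the intensity minimum of 5.

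Tek, the angiopoietin receptor, had 8.69, 8.55 and 8.51 in vehicle, 8.63, 8.69 and 8.28 in CMS25, and 8.33, 8.27 and 8.21 in CMS50. The vehicle and CMS50 arrays did not overlap, and CMS25 replicate 3 fell among the CMS50 arrays. Its change was -0.31 (SE 0.12, limma adjusted p = 0.0680), with an adjusted p of 0.0258 without CMS25 replicate 3. Tie1, its partner, was dim and pointed the other way, at 5.74, 5.76 and 5.92 in vehicle against 5.94, 6.18 and 5.97 in CMS50. The 2 groups did not overlap there either, by a narrow margin, and the change of 0.22 was not called (95% interval -0.09 to 0.54, limma adjusted p = 0.254). CMS25 kidneys had Tie1 values of 5.79, 6.21 and 5.68.

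**Figure D1:**
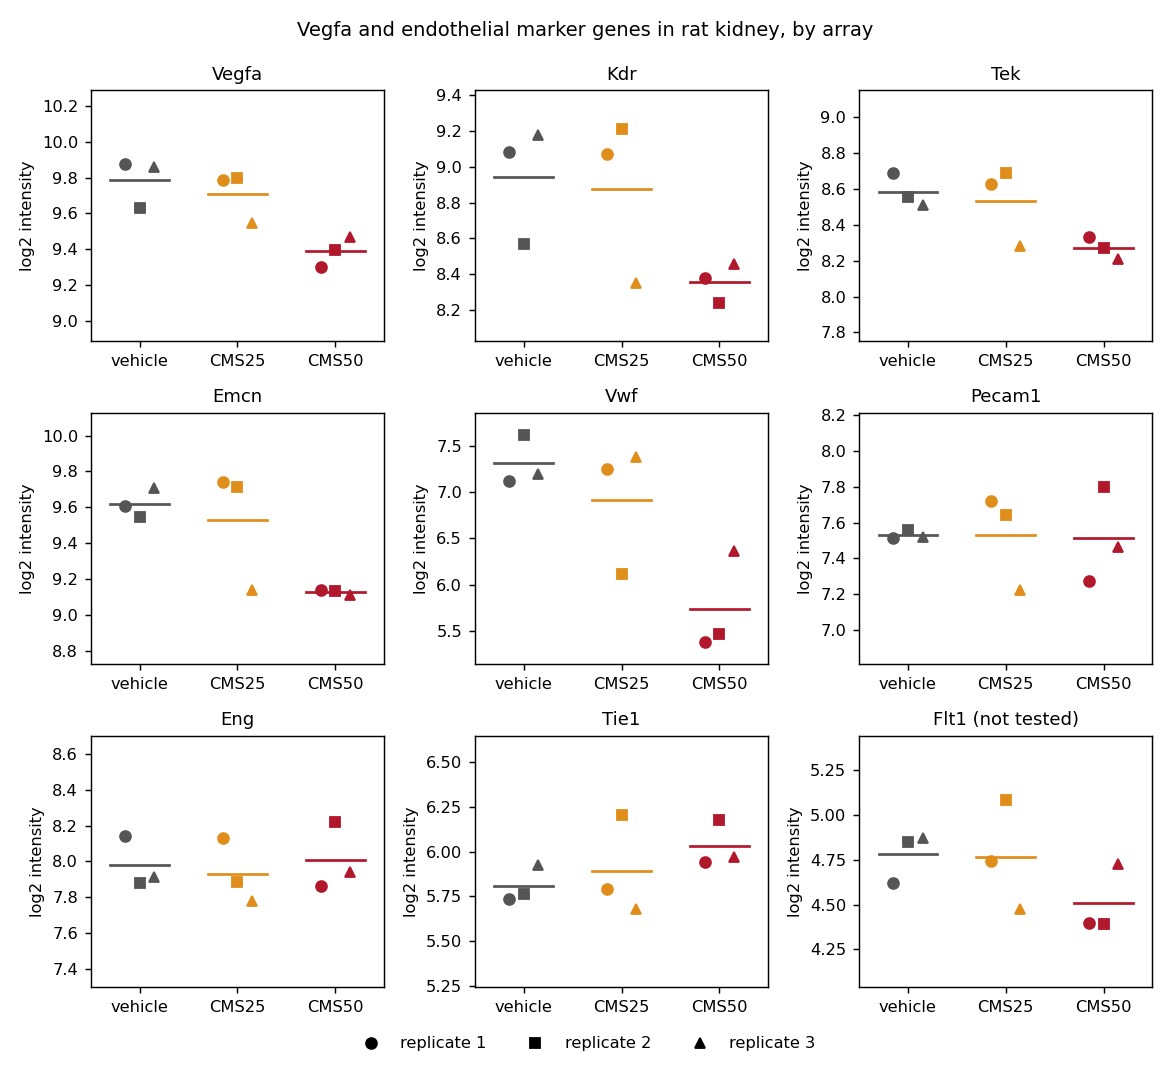
Log2 intensity of each gene (y axis) on the 9 arrays by dose group (x axis), with 1 symbol per replicate number and a line at the group mean. Vegfa, Kdr, Tek, Emcn and Vwf lie lower on all CMS50 arrays than on all vehicle arrays, and CMS25 replicate 3 (triangle) is low for all genes shown except Vwf.

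Emcn, the surface mucin, had the tightest CMS50 values among the 8 tested genes of the set, at 9.14, 9.13 and 9.11. Vehicle kidneys gave 9.61, 9.54 and 9.71, and CMS25 kidneys gave 9.74, 9.71 and 9.14. CMS50 arrays were all below vehicle arrays, with a change of -0.49 (SE 0.15, 95% interval -0.83 to -0.16, limma adjusted p = 0.0344). The call was lost on leaving out any 1 of the vehicle or CMS50 arrays (vehicle replicates 1, 2 and 3, CMS50 replicates 1, 2 and 3), with a largest adjusted p of 0.0993. Without CMS25 replicate 3 it stood at 0.00481.

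Vwf, the stored clotting protein, changed most. It measured 7.12, 7.61 and 7.19 in vehicle, 7.25, 6.12 and 7.37 in CMS25, and 5.38, 5.47 and 6.36 in CMS50. The groups at 0 and 50 mg/kg did not overlap, and CMS50 replicate 3 was the nearest to vehicle. The change was -1.57 (SE 0.36, 95% interval -2.37 to -0.77, limma adjusted p = 0.0118), and it was called under all 18 alternatives, with adjusted p from 0.00233 to 0.0492. Platelets also carry Vwf, and of 3 tested platelet and megakaryocyte markers from a list of 9, none were called by limma, with changes from -0.29 to 0.53. The summed level of the list (log2 of the sum over 6 genes on the array) ran from 8.35 to 8.56 in vehicle and from 8.41 to 8.87 in CMS50. Of the genes in that sum, Itgb3, Gp5 and Ppbp lay under the intensity minimum. The part of platelets in the Vwf value was not tested.

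Pecam1 and Eng, both broad endothelial markers, were not called. Pecam1 measured 7.52, 7.56 and 7.52 in vehicle and 7.27, 7.80 and 7.46 in CMS50, so that the CMS50 arrays lay on both sides of the vehicle arrays. Its change was -0.02 with a 95% interval from -0.38 to 0.34 (limma adjusted p = 0.937). Eng measured 8.14, 7.88 and 7.91 in vehicle and 7.86, 8.22 and 7.94 in CMS50, with a change of 0.03 and a 95% interval from -0.27 to 0.33 (limma adjusted p = 0.880).

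Pecam1 and Eng are also carried by some blood and myeloid cells. All 13 tested macrophage and myeloid markers of 16 listed rose in CMS50, with a median change of 1.23. Examples are lysozyme (Lyz2, 1.60), the growth factor receptor Csf1r (1.43), the complement chain C1qc (1.46) and the mannose receptor Mrc1 (2.74). The summed level of the 15 markers on the array ran from 11.89 to 11.94 in vehicle, from 11.60 to 12.18 in CMS25 and from 13.12 to 13.85 in CMS50. CMS50 replicate 2, the array with the highest sum, also had the highest Pecam1 and Eng of the CMS50 arrays. CMS50 replicates 1 and 3 ran in the other order. Their sums were 13.32 and 13.12, with Pecam1 at 7.27 and 7.46 and Eng at 7.86 and 7.94. The part of these cells in the Pecam1 and Eng values was not tested.

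**Figure D2:**
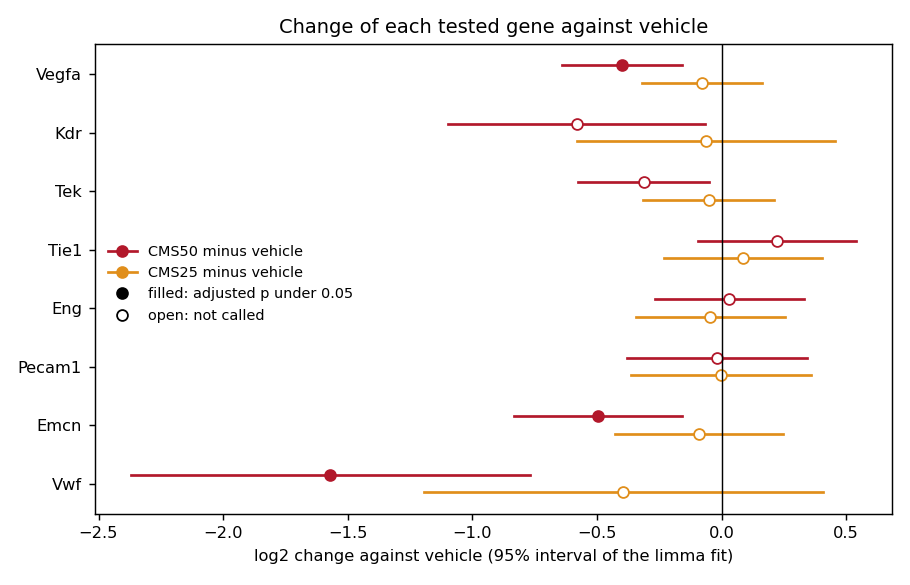
Log2 change against vehicle (x axis) of each tested gene (y axis) with the 95% interval of the limma fit, for CMS50 (red) and CMS25 (orange), with filled points for an adjusted p under 0.05. Vwf, Emcn and Vegfa are called at CMS50, and no gene is called at CMS25.

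The comparison of CMS25 with vehicle asked whether the lower dose changed the same genes. By limma 0 of 8 were called, as were 0% of all 10337 genes. At an unadjusted p under 0.05, 0 of the 8 and 604 of all genes passed, and every alternative run with limma also called 0. Changes ran from -0.40 for Vwf to 0.09 for Tie1, with a median of -0.06. Arrays of the 2 groups did not overlap in 0 of the 8 genes, and in 12.1% of all genes. Without CMS25 replicate 3 the changes turned to 0.20 for Kdr, 0.11 for Emcn, 0.07 for Tek and 0.15 for Pecam1, with 0.19 for Tie1 and -0.63 for Vwf. Without CMS25 replicate 2, Vwf was at 0.0033 and Tie1 at -0.07, so the ends of the range rest on single kidneys. The intervals were wide: -0.58 to 0.45 for Kdr, -0.43 to 0.25 for Emcn and -1.20 to 0.41 for Vwf. That of Vegfa was -0.32 to 0.16.

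The CMS25 kidneys differed among themselves. The SD of Emcn was 0.34 in CMS25, against 0.08 in vehicle and 0.01 in CMS50. In CMS25 replicate 3, Vegfa, Kdr, Tek, Tie1, Eng, Pecam1 and Emcn were each below all 3 vehicle arrays, which makes 7 of the 8 tested genes. Over all genes 39.4% were below all vehicle arrays in that kidney. In CMS25 replicates 1 and 2, 0 and 1 of the 8 were below (28.0% and 31.5% of all genes), the one being Vwf in replicate 2. Vwf was thus low in a different CMS25 kidney from the other genes.

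Lists of other genes differed in how low they were in CMS25 replicate 3. Besides Kdr, Tek, Tie1 and Eng, the other tested receptors and co-receptors Nrp1, Nrp2, Ptprb and Acvrl1 were below all vehicle arrays. Of 19 tested endothelial markers, Pecam1 and Emcn included, 10 were below, of 13 macrophage markers 11, and of 10 tested pericyte, mesangial and smooth muscle markers 8. Hypoxia-inducible factors and targets (12 of 18), podocyte markers (5 of 8), genes of endothelial activation and coagulation (5 of 7) and lymphatic markers (3 of 4) were also often below. Nearer to the share over all genes or under it were endothelial transcription factors (6 of 13), the ligand list (2 of 6) and Notch genes (3 of 7). So were thick ascending limb markers (2 of 8), platelet markers (0 of 3) and proximal tubule markers (1 of 12). The part of macrophage and mesangial cells in the low endothelial values of this kidney was not tested. On CMS50 replicates 1, 2 and 3, 7, 5 and 6 of the 8 genes were below all vehicle arrays, where 34.5%, 32.7% and 27.0% of all genes were.

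**Figure D3:**
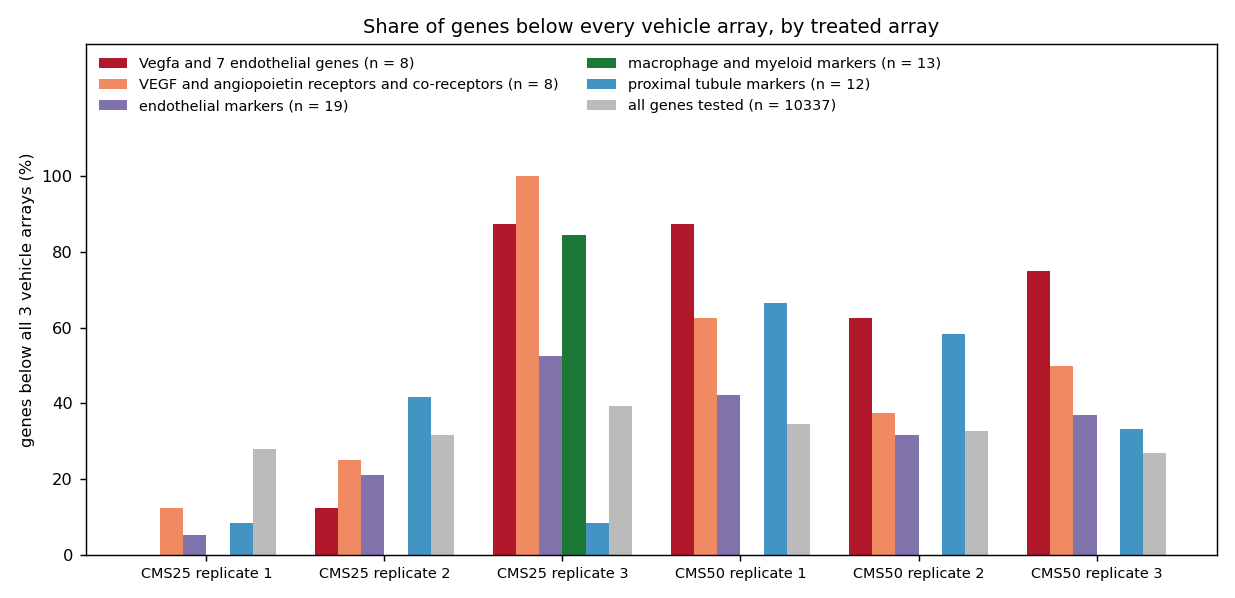
Share of the genes of each list (y axis, percent) that lie below all 3 vehicle arrays on each treated array (x axis), with all genes tested in grey. On CMS25 replicate 3, 7 of 8 genes of the set and 11 of 13 macrophage markers are below, whereas 1 of 12 proximal tubule markers is.

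The comparison of CMS50 with CMS25 tested the difference between the doses, and it shares the CMS50 arrays with the comparison against vehicle. Vwf was lower at the higher dose by 1.17 on the log2 scale (change -1.17, SE 0.36, limma adjusted p = 0.0350) and Vegfa by a smaller step (change -0.32, SE 0.11, limma adjusted p = 0.0489). These were 2 of the 8 genes, where 30.3% of all genes were called, 20.8% higher and 9.43% lower. Arrays of the 2 doses did not overlap in 2 of the 8 genes, Vegfa and Emcn, compared with 45.7% of all genes. Emcn (-0.41, adjusted p = 0.0665), Kdr (-0.52, adjusted p = 0.111) and Tek (-0.26, adjusted p = 0.113) missed the threshold in limma. Without CMS25 replicate 3, 4 genes were called lower: Emcn (-0.60), Kdr (-0.78), Tek (-0.39) and Vegfa (-0.40). In that fit 2008 of all 10337 genes were called, 650 of them lower. Vwf was then not called (-0.94, limma adjusted p = 0.109), and Vwf was also not called without vehicle replicate 3, CMS25 replicate 1, CMS50 replicate 1 or CMS50 replicate 2. The Vegfa call was lost without vehicle replicate 1 or 3, CMS25 replicate 1 or 2, or CMS50 replicate 1 or 2. The F test for any difference among the 3 doses called Vegfa (adjusted p = 0.0411) and Vwf (adjusted p = 0.0230) of the 8, and 28.1% of all genes.

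Each gene was also set against Pecam1 on the same array, as a description with no test. Pecam1 was chosen after its values had been seen to be low on CMS25 replicate 3 and little changed at CMS50, so subtracting it raises that array and leaves the CMS50 differences nearly as they were, and gives no further support to them. Emcn minus Pecam1 was 2.09, 1.98 and 2.19 in vehicle, 2.02, 2.07 and 1.92 in CMS25, and 1.86, 1.33 and 1.65 in CMS50 (log2 differences of probe set values, which show changes between arrays and not relative abundance). CMS25 replicate 3 was still the lowest of its group and below all vehicle arrays, and every CMS50 array was below every other array. Vegfa minus Pecam1 was also lowest on the CMS50 arrays, with values of 2.03, 1.59 and 2.01 and a lowest value of 2.06 elsewhere. Vwf minus Pecam1 was -0.39, 0.05 and -0.33 in vehicle, -0.48, -1.53 and 0.15 in CMS25, and -1.89, -2.33 and -1.10 in CMS50. Kdr minus Pecam1 overlapped between CMS50 and vehicle, as did Tek minus Pecam1, and for Kdr CMS25 replicate 3 (1.13) was again the lowest of its group.

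**Figure D4:**
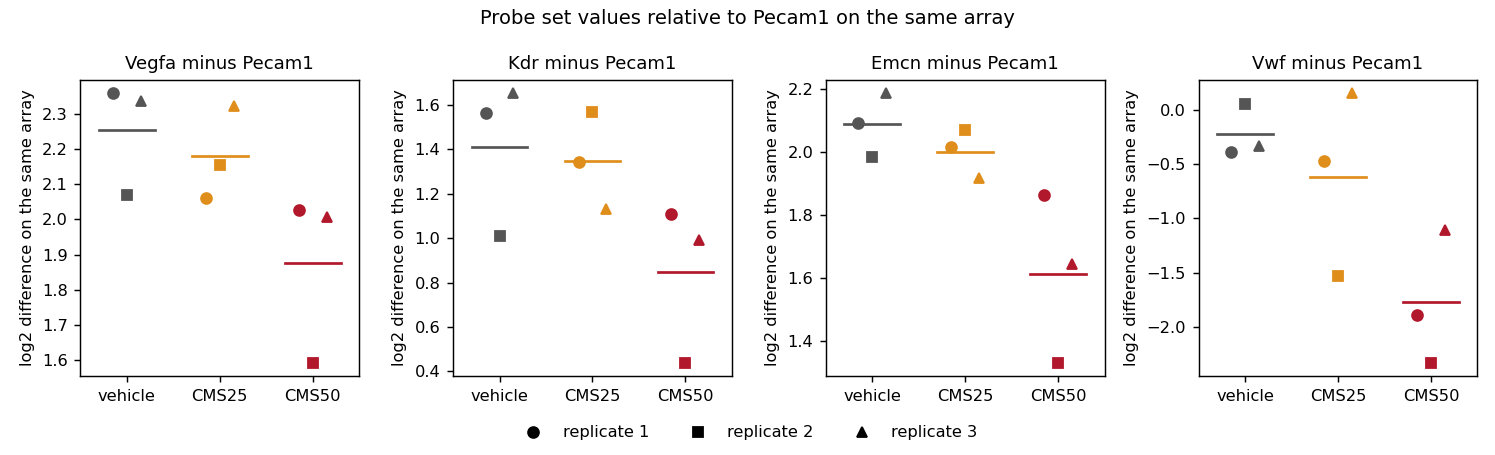
Log2 difference between a gene's probe set and that of Pecam1 on the same array (y axis), by dose group (x axis), with 1 symbol per replicate number and a line at the group mean. Vegfa and Emcn relative to Pecam1 are lower on all CMS50 arrays than on the other 6 arrays, and CMS25 replicate 3 (triangle) is the lowest of its group for Kdr and Emcn.

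The other ligands of the family did not share one direction in CMS50. Vegfb, a ligand of Flt1, fell (-0.45, SE 0.12, limma adjusted p = 0.0243), whereas Vegfc, the lymphatic growth factor, rose (0.35, SE 0.11, adjusted p = 0.0414). Angptl4, a secreted inhibitor of lipoprotein lipase that is not itself a VEGF or angiopoietin, was in the same list and rose (1.00, SE 0.29, limma adjusted p = 0.0311). Of the 6 tested genes of that list, Vegfa and Angptl4 included, 2 rose, 2 fell and 2 were not called, with a median of 0.00. Those not called were Pgf (-0.07) and Angpt2 (0.08, 95% interval -0.87 to 1.02), and Vegfd and Angpt1 lay under the intensity minimum.

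Among 8 tested receptors and co-receptors, Kdr, Tek, Tie1 and Eng included, 1 rose and 1 fell. Nrp2, a co-receptor for Vegfc, rose (0.74, SE 0.19, limma adjusted p = 0.0178), from 5.98 ± 0.02 to 6.72 ± 0.41. Ptprb, the endothelial phosphatase that restrains Tek, fell (-0.57, SE 0.15, adjusted p = 0.0209), from 8.99 ± 0.07 to 8.42 ± 0.25. Nrp1 (-0.18) and the receptor Acvrl1 (0.23) were not called, and Flt4, the receptor for Vegfc, was under the minimum together with Flt1. The median change of the tested receptors and co-receptors was -0.07. The summed level of the 10 listed, in which bright genes weigh most, ran from 11.30 to 11.45 in vehicle and from 11.02 to 11.27 in CMS50. The 2 groups did not overlap in the summed level, by a narrow margin. In CMS25 that level ran from 10.975, in replicate 3, to 11.44.

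Further endothelial markers were called about as often as genes in general. Of 19 tested from a list of 26, Pecam1, Vwf and Emcn included, 3 rose, 4 fell and 12 were not called, where 31.1% of all genes were called, with a median of 0.02 against 0.05 over all genes. Cldn5, a tight junction claudin, fell by 0.84 on the log2 scale (change -0.84, SE 0.13, limma adjusted p = 0.00332), and Vwf, Ptprb and Emcn were the other falls. The part of cells other than endothelium in the Cldn5 value was not tested. Ecscr, an endothelial surface protein (0.81), Ramp2, the adrenomedullin co-receptor (0.62), and Egfl7, a protein secreted by endothelium (0.29), rose, with adjusted p from 0.00705 to 0.0407. The summed level of the 23 markers on the array ran from 12.08 to 12.24 in vehicle, from 12.00 to 12.33 in CMS25 and from 11.94 to 12.10 in CMS50, so it overlapped between all 3 groups. The overlap of CMS50 with vehicle was narrow, with only CMS50 replicate 2 (12.10) above vehicle replicate 1 (12.08).

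Of 13 tested transcription factors of endothelium, 4 rose and 1 fell. The ETS factors Fli1 (0.78) and Ets1 (0.71), the blood and endothelial factor Lyl1 (0.67) and Klf4 (0.33) rose, and Sox17, a factor of arterial endothelium, fell (-0.71, SE 0.22, limma adjusted p = 0.0389). Fli1, Ets1 and Lyl1 are also made by leukocytes, whose markers rose in the same arrays as given above, and that part was not tested. The ETS factor Erg, which is more restricted to endothelium, was not called (-0.08, 95% interval -0.32 to 0.17). Of 7 tested Notch pathway genes, 1 rose, the target Heyl (0.34), and 0 fell.

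Among 7 tested genes of endothelial activation and coagulation, the adhesion molecule Icam1 (1.53, SE 0.15, limma adjusted p = 0.000767) and the clotting initiator F3 (0.79) rose, and the inhibitor Tfpi fell (-0.44). Injured tubule cells also make Icam1. Sele, Selp, Edn1 and Procr were under the intensity minimum. Of 4 tested lymphatic markers, Pdpn (1.39) and Ccl21 (0.84) rose and Prox1 fell (-1.10), and Pdpn is also made by podocytes. Of 10 tested pericyte, mesangial and smooth muscle markers 4 rose and 0 fell, namely Mcam (0.91), Des (0.63), Pdgfrb (0.98) and Tagln (1.08), while the list's median was -0.05.

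**Figure D5:**
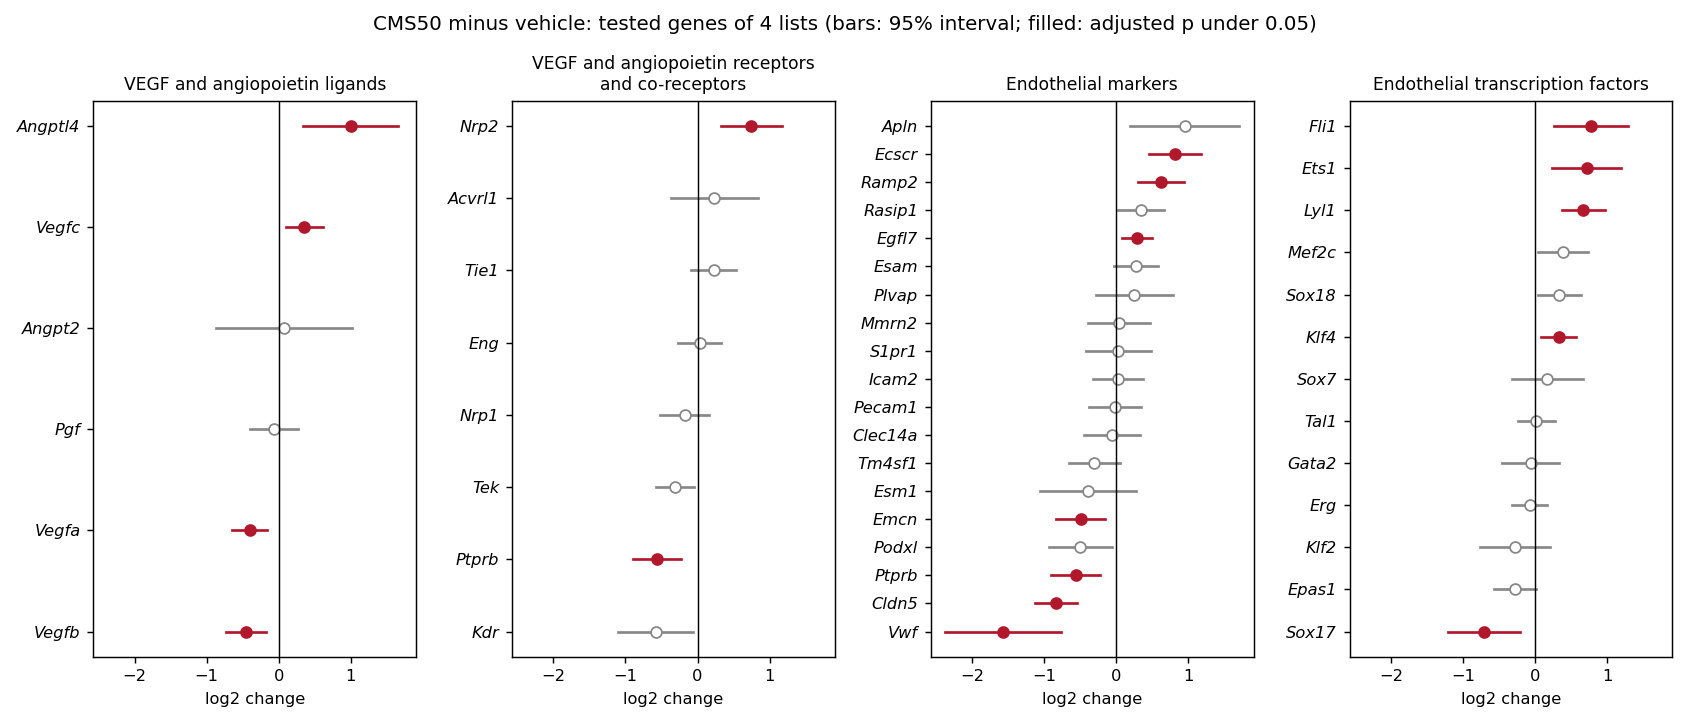
Log2 change between CMS50 and vehicle (x axis) of the tested genes in 4 lists (y axis), with 95% intervals and filled red points for an adjusted p under 0.05. Called genes lie on both sides of 0 in each list.

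Vegfa was also read beside the cells known to make it and the pathway known to induce it. Of 8 tested podocyte markers, Wt1 (-1.36) and Nphs1, which encodes nephrin (-1.05), fell and Cd2ap, which other cells also make, rose (0.69). Of 8 thick ascending limb markers 6 fell and 0 rose, among them Egf (-2.04), Kcnj1 (-1.60), Casr (-1.47) and Cldn16 (-0.92). Of 12 proximal tubule markers 4 fell and 1 rose, with Slc22a2 at -2.59, Slc22a6 at -1.25, Miox at -0.76 and Cubn at 0.90. Median changes were -0.55 for podocyte, -1.09 for thick ascending limb and -0.20 for proximal tubule markers, against 0.05 over all genes. The summed level of the podocyte markers, in which bright genes weigh most and Cd2ap is included, overlapped between the groups. It ran from 11.37 to 11.83 in vehicle and from 11.52 to 11.84 in CMS50. That of the thick ascending limb markers ran from 15.11 to 15.28 in vehicle and from 13.24 to 14.67 in CMS50. That of the proximal tubule markers ran from 16.04 to 16.15 in vehicle and from 15.67 to 15.98 in CMS50, also without overlap. The part of these cells in the Vegfa value was not tested.

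Vegfa is a classic target of the hypoxia-inducible factors. Of 18 tested factors, regulators and targets in that list, 2 rose and 6 fell, with a median of -0.27 against 0.05 over all genes. Hif1a, the oxygen-regulated subunit, rose (0.35, SE 0.10, limma adjusted p = 0.0257), as did the glycolytic enzyme Ldha (0.41). The targets Pdk1 (-0.88), Egln3 (-0.79), Bnip3 (-0.55) and Ankrd37 (-0.52) fell together with Vegfa, and so did the regulator Vhl (-0.25). Epas1, the subunit found in renal endothelium, was not called (-0.28, 95% interval -0.57 to 0.01). The array reads RNA, and the activity of these factors was not measured.

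The tested genes whose values followed Vegfa most closely over the 9 arrays were the mitochondrial deacetylase Sirt3 (r = 0.971), the exchange factor Arhgef15 (r = 0.962) and Pebp1 (r = 0.960), which changed by -0.40, -0.60 and -0.37 at CMS50. Those closest to Kdr were Atp6v1e1, a subunit of the proton pump (r = 0.984), Sfrp2, a secreted Wnt modulator (r = 0.965), and Aars1, an alanine tRNA ligase (r = 0.963). Those closest to Pecam1 were Strn3 (r = 0.955), Matn2 (r = 0.946) and Bles03 (r = 0.914). These are descriptions over 9 arrays that share dose groups, picked as the highest values among all genes tested, and no p is given.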

How the data were processed

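Each rat gave 1 Affymetrix array of its right kidney. The log2 values deposited by the authors were made with RMA and Affymetrix Expression Console, per the submitters' processing notes; the sources used here give no version. RMA gives all arrays nearly the same distribution, so a shift shared by all genes cannot be seen, and it compresses dim genes. The table held 31099 probe sets.

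The platform annotation gave 1 gene symbol to 20826 probe sets and several to 436, which named no gene. Each gene was read from its brightest probe set (highest mean over the 9 arrays, kept in all leave-outs), and 10337 of 14217 genes with a mean log2 value of at least 5 were tested. The fit held all 3 groups (limma 3.58.1, R 4.3.3, lmFit and eBayes, Benjamini-Hochberg adjustment) and was tested on simulated data. Between CMS50 and vehicle it recovered 35.8% of simulated log2 changes of 0.5, 79.1% of those of 1 and 98.5% of those of 2. Of the 153 simulated calls 7.19% were false. In the data 3211 genes were called, so these shares may differ there. P-values set the differences between group means against the spread between rats within groups. Alternatives changed the scaling, intensity minimum, probe set rule, variance model, array weights, arrays fitted and replicate block, and left out each array.

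Genes named besides the 10 were up to 4 called genes of each list with the lowest adjusted p, every VEGF and angiopoietin ligand and receptor, and the 3 genes most like Vegfa, Kdr and Pecam1. Other genes named were chosen after their values were seen. The 10 genes and the lists were chosen with earlier results of these data known.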

Additional observations from a re-analysis of the deposited data

How the results depend on the processing

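Of 8 genes, 3 were called between CMS50 and vehicle. The count was 5 with array weights and 5 with only the 2 groups compared, where Kdr and Tek joined Vegfa, Emcn and Vwf (4216 and 3224 of all genes were called in these fits, against 3211), and ran from 1 to 5 with 1 array left out. Between CMS50 and CMS25 the count of 2 became 1 with no intensity minimum, 0 with only the 2 groups compared and 1 with the replicate block, rose to 3 with cyclic loess scaling and 3 with array weights, where Emcn joined (adjusted p = 0.0469 and 0.0434 by limma), and ran from 0 to 4 with 1 array left out. For any dose the count of 2 became 1 with no intensity minimum and 1 with the replicate block, rose to 3 with array weights, and ran from 0 to 5 with 1 array left out. With CMS25 replicate 3 and CMS50 replicate 3 both left out, a choice made after seeing the data, 5 genes were called in each comparison of CMS50 and 4 for any dose. The number of all genes called between CMS50 and vehicle ran from 1687 (without CMS50 replicate 2) to 3546 with 1 array left out and was 3710 without both. Between CMS50 and CMS25 it ran from 1569 (without CMS50 replicate 2) to 3518. With cyclic loess scaling the calls between CMS50 and CMS25 split into 1746 higher and 1225 lower, against 2153 and 975 as deposited. The cause of these moves was not tested. Of the single-gene results under alternatives, 388 kept their side of the threshold, 25 lost a call, 16 gained one and 0 called changes reversed. Replicate numbers belong to different rats, and deviations of arrays with the same number correlated from -0.183 to 0.263, so they were not treated as pairs. With the replicate block, the Vegfa call between CMS50 and CMS25 was lost and 3 genes were called between CMS50 and vehicle. The number of arrays limits the precision, and Tie1 and Flt1 were dim.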
